A study of Mus musculus with 6 samples.

Results

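Transcripts of 9 genes that move bicarbonate, protons or chloride across epithelial membranes, or anchor the proteins that do so, were examined in the whole epididymis of wild-type (WT) and occludin-null (Ocln-KO) mice. The genes were chosen by symbol for their roles in luminal pH control. They are the chloride/bicarbonate exchanger genes Slc4a2, Slc4a9, Slc26a4 and Slc26a6, the sodium/bicarbonate cotransporter genes Slc4a4 and Slc4a7, the sodium/proton exchanger gene Slc9a3, the anion channel gene Cftr and the scaffold gene Slc9a3r1. All 9 were found among the 57127 genes listed in the count table, and 7 were abundant enough to be tested. The WT group was adult wild-type C57BL/6 mice, and the Ocln-KO group adult C57BL/6 mice of genotype Ocln-/-, bred from heterozygous pairs and untreated, as were the controls. Each group had 3 libraries of total RNA depleted of rRNA. The knockout is not limited to a cell type, and the whole organ was used, so that all its regions and cell types share 1 library. RNA was taken from 3 pairs of mice, but the methods also speak of pooled RNA, so n counts libraries and p-values measure the spread between these libraries.

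The epididymal epithelium keeps the luminal fluid acidic and low in bicarbonate, which holds sperm quiescent during storage. Clear cells secrete protons through V-ATPase, while principal cells take up bicarbonate and exchange sodium for protons across the apical membrane. Cl-/HCO3- exchangers and Na+/HCO3- cotransporters carry bicarbonate across the apical or basolateral face, and CFTR, a cAMP-regulated anion channel of the apical membrane, can return chloride and bicarbonate to the lumen. The luminal pH of these mice is not analysed here.

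The libraries held between 30646424 and 38870780 counts. Values are given as CPM, counts scaled to a common library size after correction of the libraries by TMM factors, and 1 count equalled between 0.0267 and 0.0314 CPM. Ocln itself had 85.9, 78.8 and 91.8 CPM in WT replicates 1 to 3 and 15.1, 15.3 and 14.9 CPM in the Ocln-KO libraries, so the labels match the targeted gene. The epididymal transcripts Crisp1, Adam7, Lcn5 and Rnase9 were abundant. Lcn8, Cst8, Rnase10, Cst11 and Adam28, which are known from the initial segment and caput, had at most 2.30 CPM in any library. Other listed markers of the initial segment were abundant, Ros1 at between 208 and 420 CPM and Ggt1 at between 81.9 and 193 CPM. On the first principal component of log2 CPM, which held 47.2% of the variance, Ocln-KO replicate 3 lay at -86.3, away from the other Ocln-KO libraries at -17.7 and -29.1. Of the 7 tested genes, 6 had their lowest or highest value of all libraries in Ocln-KO replicate 3. The same held for 21 of 34 tested genes of the related lists described below.

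None of the 7 tested genes passed the comparison of genotypes. In the quasi-likelihood test of edgeR, adjusted by the Benjamini-Hochberg method over all 19691 genes tested (the adjusted p throughout), 0 of 7 had an adjusted p under 0.05, against 8.95% of all genes (5.04% lower, 3.91% higher). With a fold change over 2 required as well, 0 of 7 were called, against 3.19% of all genes (1.7% lower, 1.49% higher). At an unadjusted p under 0.05 there were 2, Slc9a3 and Slc4a2, both lower in Ocln-KO, against 29.1% of all genes. DESeq2 and limma-voom each called 1 of the 7, Slc9a3. Over all 19691 genes tested, DESeq2 called 1604 higher and 1708 lower, and limma-voom called 729 higher and 1050 lower. Separation of every WT library from every Ocln-KO library was seen in 3 of the 7, Slc9a3, Slc4a2 and Slc4a7, against 36.3% of all genes tested. The median log2 fold change (Ocln-KO over WT) of the 7 genes was -0.22, beside 0.01 over all genes tested. These shares lie near those of all genes. Among the 7, the log2 fold change farthest from 0 was that of Slc9a3, and the nearest that of Cftr. In whole-organ RNA, fewer cells of a type and less RNA per cell cannot be told apart.

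**Figure D1:**
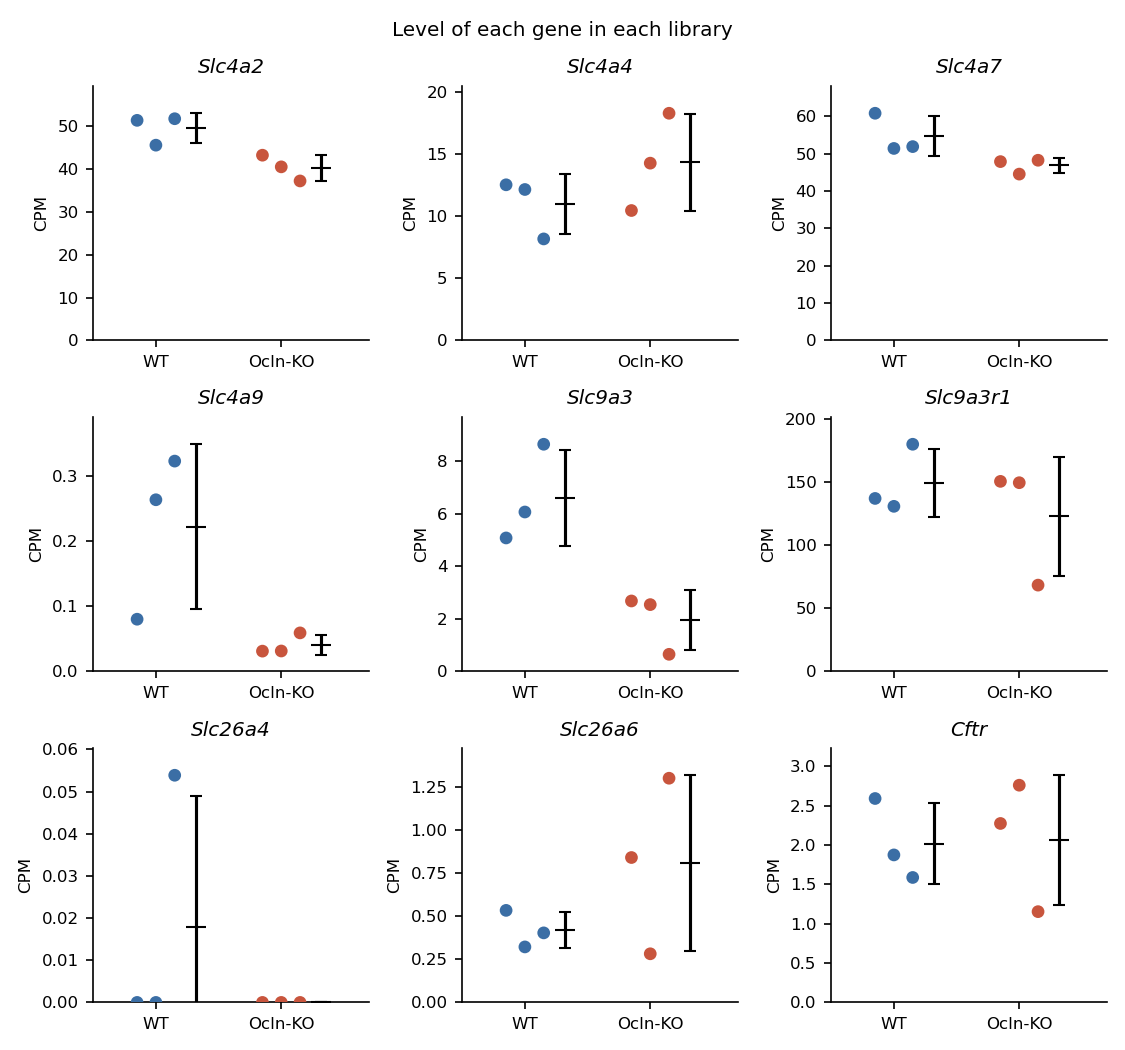
CPM (linear axis from 0, a separate scale per gene) of the 9 genes in each library, with WT in blue and Ocln-KO in red, replicates 1 to 3 from left to right, and the mean with SD in black (n = 3). Slc9a3, Slc4a2 and Slc4a7 show no overlap between the genotypes among the tested genes, and Slc9a3 and Slc9a3r1 are lowest in Ocln-KO replicate 3, at 0.651 and 68.3 CPM.

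Slc9a3 encodes NHE3, the apical sodium/proton exchanger that takes up sodium and secretes protons. The gene lies on chromosome 13 from 74121457 to 74169442 (GRCm38, GENCODE vM21), with 18 merged exons on the plus strand. It had 5.08, 6.07 and 8.64 CPM in WT replicates 1 to 3 and 2.68, 2.54 and 0.651 CPM in Ocln-KO replicates 1 to 3, from 190, 207 and 321 counts and 86, 81 and 22 counts. Every WT library lay above every Ocln-KO library, and Ocln-KO replicate 3 was well below the other 2. The means were 6.60 ± 1.84 and 1.96 ± 1.13 CPM (SD, n = 3 each). The log2 fold change was -1.75 (standard error 0.49, 95% interval -2.88 to -0.62, edgeR unadjusted p = 0.00729 and adjusted p = 0.0633), which exceeds the variation among libraries before adjustment but misses the threshold after it. Of all genes tested, 1.66% had a lower log2 fold change.

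Whether Slc9a3 passed depended on the processing and on 1 library. The adjusted p was 0.00258 with DESeq2, 0.0485 with limma-voom and 0.0249 without a low-count filter. Without Ocln-KO replicate 3 it was 0.0264, although the log2 fold change shrank to -1.34. Under the 14 alternatives the adjusted p ran up to 0.2, reached without WT replicate 3, and the log2 fold change stayed between -2.04 and -1.34.

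**Figure D2:**
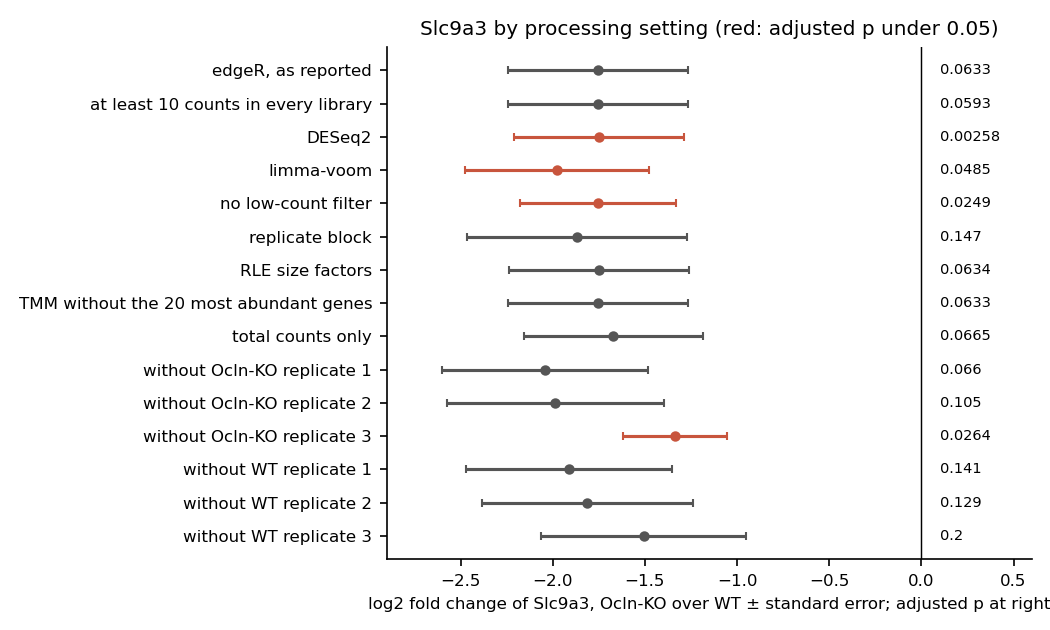
Log2 fold change of Slc9a3, Ocln-KO over WT, with its standard error (x axis) for the reported fit and 14 alternatives (y axis), and the adjusted p printed at the right. Points in red have an adjusted p under 0.05, which holds for 4 of the alternatives, and every point lies below 0.

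Markers of clear cells were lower in the same libraries. All 7 markers on the clear cell list (Atp6v1b1, Atp6v0a4, Atp6v0d2, Atp6v1g3, Atp6v1c2, Foxi1 and Car2) were lower in Ocln-KO, 4 of them called, and all 7 had counts in each library. Their summed level ran from 243 to 341 CPM in WT and was 141, 145 and 73.5 CPM in Ocln-KO replicates 1 to 3. Both this sum and Slc9a3 were lowest in Ocln-KO replicate 3 and highest in WT replicate 3. Among the clear cell markers, only Car2, Atp6v1c2 and Atp6v0a4 shared this low library. Car2 weighed most in the WT sum, at 137, 98.5 and 161 CPM in WT replicates 1 to 3. In Ocln-KO replicates 1 to 3, Car2 had 46.4, 62.7 and 5.89 CPM, and Atp6v1c2 had 48.8, 40.0 and 14.7 CPM. Atp6v0a4 was also lowest in Ocln-KO replicate 3, whereas Atp6v1b1 and Atp6v1g3 were not. Foxi1 (15.7, 17.9 and 24.0 CPM) and Atp6v0d2 (7.51, 5.46 and 10.6 CPM) were highest there among the Ocln-KO libraries. The red cell list was also lower, from between 21.9 and 49.6 CPM in WT to between 6.04 and 13.2 CPM, with 1 of 5 markers called lower. The adipocyte list, at between 4.93 and 9.06 CPM in WT and between 0.592 and 3.55 CPM in Ocln-KO, had none of 5 called, and Adipoq, Plin1 and Cidec were at 0 in Ocln-KO replicate 3. Of the 8 principal cell markers, 5 were lower and 1, the aquaporin gene Aqp9, was called lower. Their summed level overlapped, at between 27709 and 33243 CPM for WT libraries and 19255, 28370 and 20619 CPM for Ocln-KO replicates 1 to 3, and Cst8 was at 0 in Ocln-KO replicate 3. Crisp1, the most abundant of them, had 16769, 12488 and 15417 CPM in the WT libraries, against 9957, 9160 and 4439 CPM, without overlap and lowest in Ocln-KO replicate 3 (edgeR adjusted p = 0.0855). Smooth muscle markers stood the other way: all 5 were higher in Ocln-KO, Myh11 and Actg2 being called, none was at 0, and their sum of between 1079 and 1295 CPM for WT libraries lay below that of between 1493 and 1972 CPM for Ocln-KO libraries. Of the 5 basal cell markers, 4 were higher in Ocln-KO and 1, Krt14, was called higher. Of the 5 general epithelial genes, 4 were lower, while Krt19 was called higher. The part of these lists in the level of Slc9a3 was not tested.

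Slc9a3r1 encodes NHERF1, a PDZ scaffold that binds the tails of NHE3 and CFTR and links them through ezrin to the actin cytoskeleton. It lies on chromosome 11 from 115163341 to 115181181. Its level was 137, 131 and 179.8 CPM in the WT libraries, against 150.4, 149.4 and 68.3 CPM in Ocln-KO. Ocln-KO replicates 1 and 2 lay within the WT range, and only replicate 3 lay below it. The means were 149 ± 26.7 and 123 ± 47.1 CPM (SD, n = 3 each), giving a log2 fold change of -0.28 (95% interval -0.94 to 0.38, edgeR adjusted p = 0.559). Without Ocln-KO replicate 3 it was 0.01, so the direction rested on that library.

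Relative to its scaffold, Slc9a3 was lower in each Ocln-KO library. Per kb of exon, the level of Slc9a3 was 1.30%, 1.62% and 1.68% of that of Slc9a3r1 in WT replicates 1 to 3. It was 0.623%, 0.595% and 0.333% in Ocln-KO replicates 1 to 3, with no overlap. For Cftr the same share was 0.469%, 0.356% and 0.219% in WT and 0.375%, 0.458% and 0.419% in Ocln-KO, which overlapped. These ratios were formed after the values were seen and carry no test.

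Cftr lies on chromosome 6 from 18170687 to 18322768, and 1.66% of its exon length is shared with the antisense gene Gm15592. Its level was 2.59, 1.88 and 1.59 CPM in the WT libraries, against 2.28, 2.76 and 1.15 CPM in Ocln-KO, between 39 and 97 counts per library. The Ocln-KO libraries held both the highest and the lowest value of the 6. The means were 2.02 ± 0.517 and 2.06 ± 0.825 CPM (SD, n = 3 each), giving a log2 fold change of 0.03 (standard error 0.39, edgeR adjusted p = 0.969). The 95% interval, from -0.87 to 0.93 on the log2 scale, or between 0.547-fold and 1.90-fold, leaves room for a moderate change in either direction. The sign turned under 6 of the 14 alternatives, within -0.24 and 0.32. Sperm transcripts had the same low library: the summed level of 6 spermatid and sperm markers lay within 189 and 253 CPM for WT, against 254, 270.3 and 64.2 CPM for Ocln-KO replicates 1 to 3, with none of the 6 called and none at 0. Their part in the level of Cftr or Slc9a3r1 in that library was not tested.

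Slc4a2 encodes AE2, a Cl-/HCO3- exchanger found on the basolateral membrane of many epithelia. It lies on chromosome 5 from 24423837 to 24440950. Its level was 51.3, 45.5 and 51.7 CPM in the WT libraries, against 43.2, 40.5 and 37.2 CPM in Ocln-KO. Each Ocln-KO library was below each WT library, and the spread within each genotype was small. The means were 49.5 ± 3.46 and 40.3 ± 3.005 CPM (SD, n = 3 each). The log2 fold change was -0.30 (standard error 0.10, 95% interval -0.52 to -0.07, edgeR unadjusted p = 0.0162 and adjusted p = 0.0935). The adjusted p stayed between 0.0864 and 0.246 over the 14 alternatives. Of its exon length, 13.7% is shared with genes on the opposite strand, Fastk and Gm22333, and the strand setting of the counting is not given in the sources used here.

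Slc4a7 encodes NBCn1, which carries sodium and bicarbonate into the cell without net charge. It lies on chromosome 14 from 14702279 to 14799940. Its level was 60.8, 51.4 and 51.9 CPM in the WT libraries, against 47.8, 44.5 and 48.2 CPM in Ocln-KO. The genotypes did not overlap, although the gap between the lowest WT and the highest Ocln-KO library was narrow. The means were 54.7 ± 5.30 and 46.9 ± 2.04 CPM (SD, n = 3 each), giving a log2 fold change of -0.22 (standard error 0.10, 95% interval -0.45 to 0.00, edgeR adjusted p = 0.178).

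Slc4a4 encodes NBCe1, the electrogenic sodium/bicarbonate cotransporter. It lies on chromosome 5 from 88886818 to 89239653. Its level was 12.5, 12.1 and 8.16 CPM in the WT libraries, against 10.4, 14.2 and 18.3 CPM in Ocln-KO. Ocln-KO replicate 3 was the highest library and WT replicate 3 the lowest, with the others between them. The means were 10.9 ± 2.41 and 14.3 ± 3.91 CPM (SD, n = 3 each), giving a log2 fold change of 0.39 (standard error 0.24, 95% interval -0.18 to 0.96, edgeR adjusted p = 0.334). Slc4a4 and Slc9a3 thus had their extremes in the same 2 libraries, in opposite directions.

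Slc26a6, Slc4a9 and Slc26a4 were the scarcest of the 9 genes. Slc26a6 encodes PAT1, an apical anion exchanger of chloride for bicarbonate or oxalate, and lies on chromosome 9 from 108853283 to 108913049. Its level was 0.535, 0.322 and 0.404 CPM in the WT libraries, against 0.842, 0.282 and 1.30 CPM in Ocln-KO, from between 9 and 44 counts. Ocln-KO replicate 2 was below every WT library, while the other Ocln-KO libraries were above them. The log2 fold change was 0.94 (standard error 0.60, 95% interval -0.44 to 2.31, edgeR adjusted p = 0.338), a difference within the spread of the Ocln-KO libraries.

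Slc4a9 encodes AE4, an anion exchanger gene known from intercalated cells of the kidney, which resemble clear cells. It lies on chromosome 18 from 36528147 to 36556273. It had 3, 9 and 12 counts in WT and 1, 1 and 2 counts in Ocln-KO, or 0.0802, 0.264 and 0.323 CPM against 0.0312, 0.0314 and 0.0592 CPM. The groups did not overlap, but WT replicate 1 was near the Ocln-KO libraries. Summed over libraries, 24 counts stood against 4, and the WT level was 5.40 times the Ocln-KO level, with an exact 95% interval of 1.85 to 21.4 that covers counting error only. The gene was too scarce for the main test. When all genes with a count were tested, it had an edgeR unadjusted p of 0.0587 and an adjusted p of 0.274.

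Slc26a4 encodes pendrin, an apical chloride/bicarbonate exchanger also known from intercalated cells, and lies on chromosome 12 from 31519827 to 31559969. It had 2 counts in WT replicate 3 and none in the other 5 libraries. A count of 0 allows up to 3 counts, or between 0.0888 and 0.0942 CPM in an Ocln-KO library, so no difference was detectable at this depth and no fold change is given. Foxi1, a transcription factor gene known to be needed for pendrin in the inner ear, was measured in every library, at between 30.6 and 35.5 CPM in WT and between 15.7 and 24.0 CPM in Ocln-KO.

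**Figure D3:**
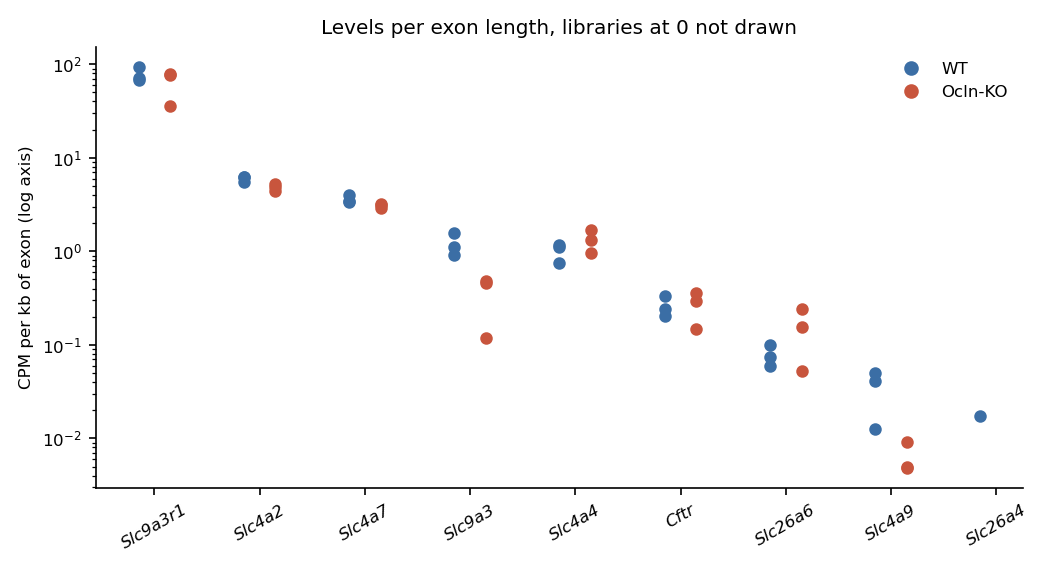
CPM per kb of exon (log axis) of the 9 genes in each library, ordered by the WT mean, with WT in blue and Ocln-KO in red; libraries with no count are not drawn. Slc9a3r1 lies 13.0-fold above the next gene, Slc4a2, in the WT mean, and Slc9a3 stands above Slc4a4 in the WT mean and below it in the Ocln-KO mean.

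Per kb of exon, levels can be set beside each other within a genotype. In WT the order of mean level was Slc9a3r1 (77.5 CPM per kb), Slc4a2 (5.95), Slc4a7 (3.60), Slc9a3 (1.198), Slc4a4 (1.01), Cftr (0.26), Slc26a6 (0.0777), Slc4a9 (0.0347) and Slc26a4 (0.00577). The WT ranges of Slc9a3 and Slc4a4 overlapped, as did those of Slc4a9 and Slc26a4, while all other neighbours were apart. In Ocln-KO Slc4a4 (1.32 CPM per kb) stood above Slc9a3 (0.356), and their ranges no longer overlapped. There the ranges of Slc9a3 and Cftr (0.266) overlapped, and those of Cftr and Slc26a6 (0.149). The scaffold transcript alone held between 78.3% and 88.6% of the summed level of the 9 genes in each library. The exon lengths come from GENCODE vM21, which may differ from the annotation used for counting.

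The proportions among the bicarbonate carriers within a library were also compared. Per kb of exon, Slc4a4 stood at 18.8%, 20.5% and 12.1% of Slc4a2 in WT and at 18.6%, 27.1% and 37.8% in Ocln-KO, with Ocln-KO replicate 1 inside the WT range. Slc4a7 stood at between 54.9% and 64.9% of Slc4a2 in WT and between 60.2% and 71.0% in Ocln-KO. The proportions overlapped between the genotypes for both pairs of genes, and neither comparison carries a test.

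The other genes of the same families were examined as 4 lists, of which 34 of 41 genes were abundant enough to be tested. By edgeR's test 3 had an adjusted p under 0.05 and were lower, and 1 was higher, where 5.04% of all genes were lower and 3.91% higher, and the median log2 fold change of the 34 was -0.02. At an unadjusted p under 0.05 there were 7 of 34, against 29.1% of all genes. The count of 3 became 0 without WT replicate 1 or WT replicate 3 and 1 without WT replicate 2. The other count of 1 became 0 without any one of WT replicates 1 to 3 or Ocln-KO replicate 2. It became 4 when Ocln-KO replicate 1 was left out.

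Of the other SLC4 genes, 4 of 6 were tested and Slc4a8 was called. Slc4a8 encodes NDCBE, a sodium-driven Cl-/HCO3- exchanger, and had the highest level per kb on its list. It fell from 68.7, 58.8 and 67.6 CPM in WT to 37.9, 33.1 and 23.7 CPM in Ocln-KO. The 2 groups were well apart, the log2 fold change being -1.04 (standard error 0.17, edgeR adjusted p = 0.0201). In WT its level of 4.99 ± 0.415 CPM per kb (SD, n = 3) lay between those of Slc4a2 and Slc4a7.

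Of the other SLC26 genes, 6 of 9 were tested and Slc26a3 was called. Slc26a3 encodes DRA, an apical Cl-/HCO3- exchanger best known from the colon. It fell from 23.3, 26.2 and 23.7 CPM in WT to 7.29, 11.1 and 10.5 CPM in Ocln-KO. No library came near the other genotype, and the log2 fold change was -1.34 (standard error 0.17, edgeR adjusted p = 0.0117). Slc26a2, a sulfate transporter gene with the highest level per kb on this list, averaged 95.3 CPM across WT libraries against 88.0 CPM across Ocln-KO libraries, with overlap. Slc26a7 had 7.23 and 7.97 CPM in Ocln-KO replicates 1 and 2 and 0.799 CPM in replicate 3, against between 4.74 and 6.58 CPM in WT.

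Of the other SLC9 genes, 10 of 11 were tested, 5 of them lower and 5 higher in Ocln-KO. Their median was -0.10 on the log2 scale, and 1 was called lower. The plasma membrane exchanger gene Slc9a2 had a log2 fold change of 0.42 and overlapped between the genotypes (edgeR adjusted p = 0.311).

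Of the 15 scaffold, linker and regulator genes, 14 were tested and Msn was called. Msn encodes moesin, a relative of ezrin that is abundant in leukocytes and endothelium. It rose from 44.5, 42.9 and 37.6 CPM in WT to 58.5, 69.2 and 82.7 CPM in Ocln-KO, a log2 fold change of 0.75 (standard error 0.14, edgeR adjusted p = 0.0245). Leukocyte markers were higher in the same libraries, with all 5 tested of the 6 on the list higher in Ocln-KO and 1, Ptprc, called. Their summed level ran from 61.7 to 70.1 CPM in WT and was 86.3, 114 and 155 CPM in Ocln-KO replicates 1 to 3, the order of Msn in these libraries. The endothelial list, with none of 4 markers called, overlapped between the genotypes, at between 67.5 and 79.1 CPM in WT. In Ocln-KO replicates 1 to 3 its sum was 68.2, 78.5 and 85.8 CPM, also the order of Msn. The initial segment sum rose in that order too, at 358, 498 and 614 CPM. The part of these lists in the level of Msn was not tested. Ezr, the ezrin gene and the most abundant per kb on this list, averaged 329 ± 19.2 CPM across WT libraries against 383 ± 27.4 CPM across Ocln-KO libraries (SD, n = 3 each), or 0.22 as a log2 fold change (edgeR adjusted p = 0.173).

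**Figure D4:**
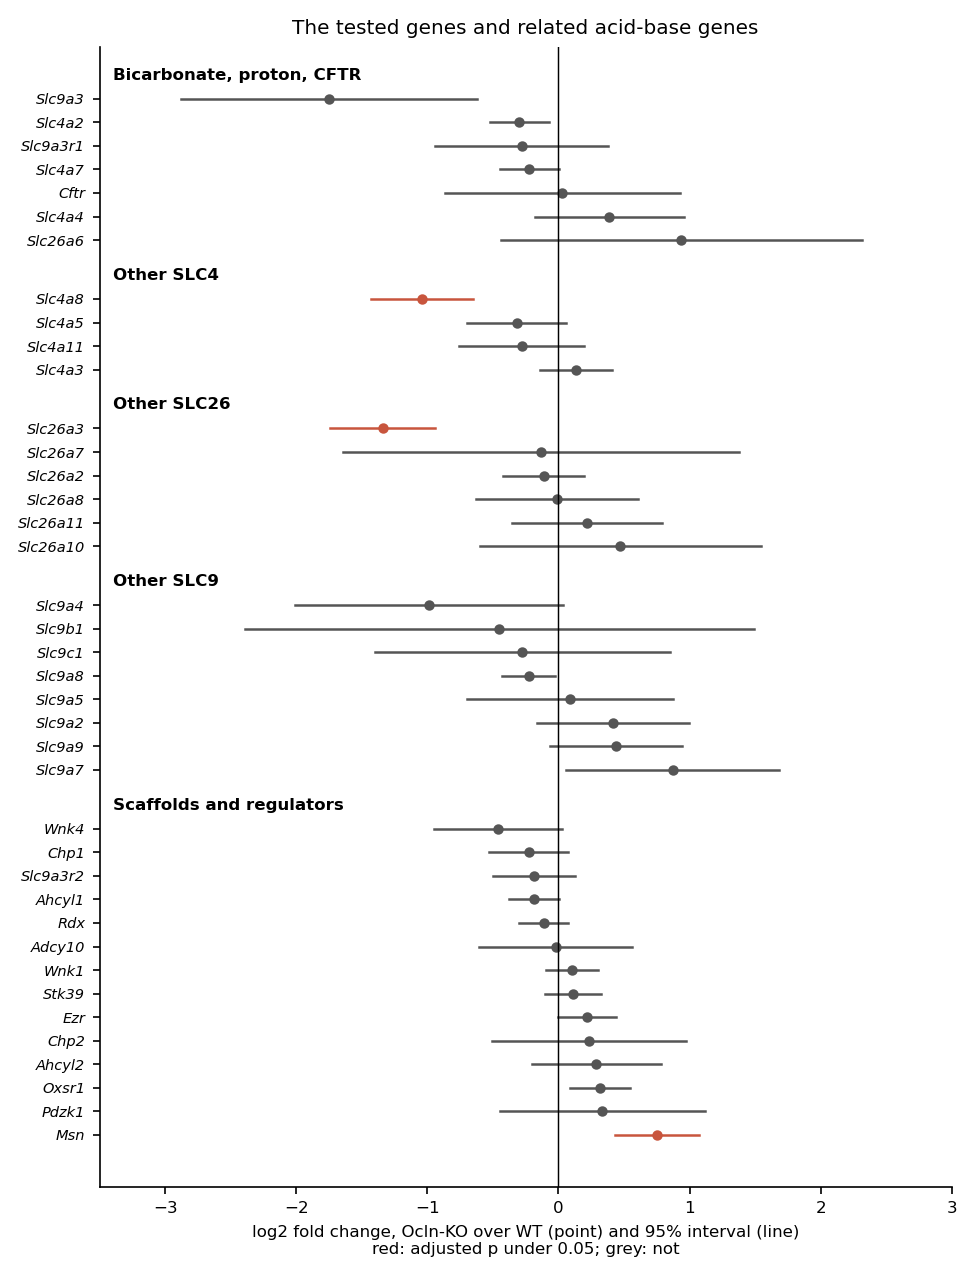
Log2 fold change (point) and 95% interval (line) of Ocln-KO over WT on the x axis for the 7 tested genes and 32 of the related genes, grouped by family and sorted within it. Genes with an adjusted p under 0.05 are red, here Slc4a8, Slc26a3 and Msn, and among the 7 only the intervals of Slc9a3 and Slc4a2 lie wholly below 0.

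The members' profiles over the 6 libraries were also compared with those of 13637 named genes with a mean of at least 1 CPM, by the root mean square difference of log2 CPM centred on each gene's mean. The genes most like Slc9a3 were Ramp1 (difference 0.11) and Alas2 (0.14), where the profile of Slc9a3 itself had a root mean square deviation of 1.17. Alas2, the erythroid heme synthesis enzyme gene, is on the red cell list. Those most like Slc9a3r1 were Pdzd9 (0.08) and Ppp1r1b (0.12), and those most like Cftr were D1Pas1 and Plcz1 (0.13 each). For Slc4a4 they were Phf6 and Cacna2d1 (0.07 each), for Slc26a6 Spsb4 (0.22) and Lrrc16b (0.27), for Slc4a2 Med26 (0.02) and Ddb1 (0.03), and for Slc4a7 Cmtm6 (0.01) and Sri (0.02). With 6 libraries, and flat profiles for Slc4a2 and Slc4a7, such likeness is a description only.

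**Figure D5:**
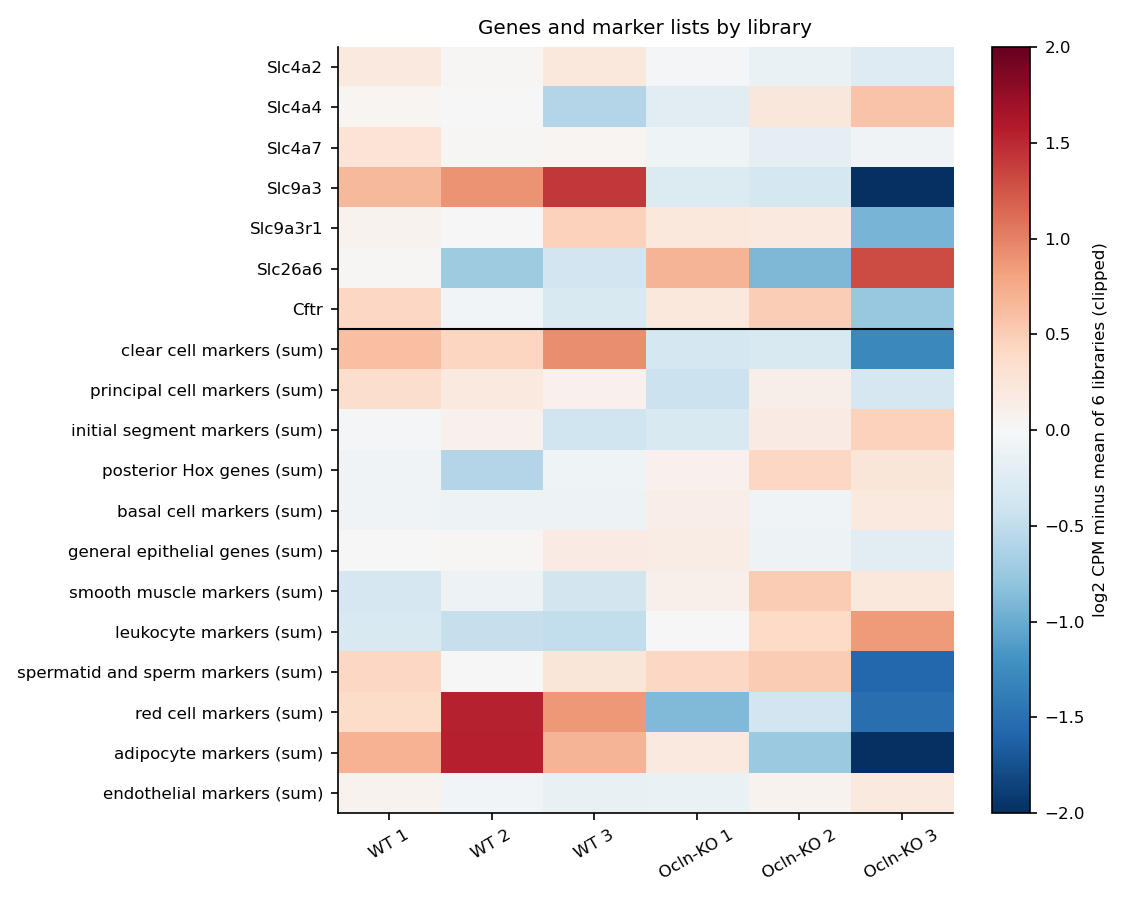
Log2 CPM minus its mean over the 6 libraries (colour, clipped at -2 and 2) for the 7 tested genes (upper rows) and for the summed CPM of 12 marker lists (lower rows), by library. Slc9a3, Slc4a2, Slc4a7, Slc9a3r1 and the clear cell, principal cell, general epithelial, red cell and adipocyte sums are above their mean in all WT libraries. Ocln-KO replicate 3 has the lowest value in each of these rows except Slc4a7 and the principal cell sum. This does not hold for each clear cell marker singly.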

How the data were processed

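Total RNA of whole epididymis was sequenced in 3 WT and 3 Ocln-KO libraries, grouped by the genotype in their labels. The deposited values are raw read counts per gene, which the authors made by aligning reads with HISAT2 (version 2.0.4 in the submitters' processing notes) and counting with HTSeq. The strand setting and annotation version of the counting are not given in the sources used here. The extraction protocol in the labels names a brain region, whereas the tissue label and the abundant epididymal transcripts name the epididymis. Of the listed symbols, 27 were altered to dates, holding 0.145% of counts.

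Genes passing edgeR's filterByExpr (19691) were fitted in R 4.3.3 with edgeR 4.0.16 (TMM factors, quasi-likelihood test, Benjamini-Hochberg adjustment, threshold 0.05). A difference of 3 against 3 libraries cannot reach an exact permutation p under 0.1, so no such test is given. Alternatives were DESeq2 1.42.0, limma-voom (limma 3.58.1), other scalings and filters, a replicate block and each library left out. Scripts were tested on simulated data. No library was a duplicate of another. Exon lengths and coordinates come from GENCODE vM21 (GRCm38). Totals of 30646424 to 38870780 counts set the precision, and counting intervals and the limit of 3 counts cover counting error only.

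The members and gene lists were chosen with earlier results of these data known. All 9 members are named, with the related genes called, the most abundant related gene of each list, and the 2 genes most like each tested member, except 2 related genes that are counted but not reported here. Slc26a7 and Slc9a2 were named after their values were seen.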

Additional observations from a re-analysis of the deposited data

How the results depend on the processing

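Of 97 values of single genes under 14 alternatives, 86 kept their direction and their side of the threshold, and 4, all of Slc9a3, passed it. The members called lower were 0 as reported, 1 with DESeq2, 1 with limma-voom, 1 without a low-count filter and 0 to 1 when a library was left out. Direction turned for Cftr, with a log2 fold change of -0.0418 in limma-voom, -0.0247 with the replicate block and -0.24 to 0.32 when a library was left out, and for Slc9a3r1, at -0.45 to 0.00562 when a library was left out. Of the related genes, 1 was called higher as reported, 2 with DESeq2, 0 with the replicate block and 0 to 4 when a library was left out, and 3 were called lower as reported, 0 with the replicate block and 0 to 3 when a library was left out. Over all genes, 770 were called higher and 992 lower, 1604 and 1708 with DESeq2, 10 and 31 with the replicate block, and 1175 and 674 with total counts only, which moved the median log2 fold change of all genes from 0.01 to 0.09. When a library was left out they were 4 to 782 and 19 to 944, the lowest without WT replicate 1. Same-numbered libraries did not deviate together (correlations -0.0525, -0.0315 and -0.00256), so the numbers pair nothing that the data show. Depth limits Slc4a9 and Slc26a4, which are near or below 3 counts per library in Ocln-KO. The causes of these changes were not tested.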
